A study of Mus musculus with 12 samples.

Results

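The genes that build, hold and cut the extracellular matrix were compared between 3 mouse cell lines on single-color microarrays. They are the collagens, laminins, fibronectin, integrin chains, matrix metalloproteinases and tissue inhibitors of metalloproteinases (TIMPs). They were chosen by mouse symbol (Col, Lam, Itga, Itgb, Mmp and Timp names and Fn1), leaving out Itgam. The rule matched 112 genes in the table of mouse names, and 101 of them had probes, out of 17277 genes with a symbol on the array and 25128 genes and unnamed targets in all. The 101 genes were 38 collagens, 9 laminins, 16 integrin α chains, 8 integrin β chains, 22 matrix metalloproteinases, 4 TIMPs, Fn1 and 3 integrin-binding proteins (Itgb1bp1, Itgb1bp2 and Itgb3bp) whose symbols fit the pattern although they are not integrin chains. The 11 without a matched target were Col12a1, Col20a1, Col22a1, Col6a3, Col6a4, Col6a5, Itga10, Itgb8, Lama3, Lama5 and Mmp27, which are not analysed here. The study profiled cell lines that serve as hosts for transfected receptors, and the 12 arrays used here hold 4 separately grown plates of AtT20 (the name of a mouse pituitary tumor line), BV2 (a mouse microglial line kept in resting conditions) and N18 (a mouse neuroblastoma line). None of the plates was treated, each line was grown to confluence in a medium with serum, and each line is 1 established culture, so that the spread between plates is that of repeated cultures of 1 line. HEK293 cells were not analysed here.

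Collagens form the fibrils and sheets of the matrix, laminins assemble with type IV collagen into basement membranes, and fibronectin links matrix fibrils to cells. Integrins are receptors made of an α and a β chain that bind these proteins or partners on other cells. Those with the β1 chain are the broad matrix receptors, whereas those with the β2 chain are found on leukocytes. Metalloproteinases cut matrix proteins, and TIMPs block them. Brain microglia carry leukocyte integrins, and neuroblasts of the neural crest use matrix receptors when they migrate.

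The values are log2 intensities, with the probes of a gene averaged on the linear scale. Levels are given in log2 units above the mean of 10 seminal proteins on the same plate, and a gene was called detected where its mean level over 4 plates exceeded 2 SD of those proteins, which was 0.37 ± 0.11 (SD, n = 4 plates) in AtT20, 0.56 ± 0.15 in BV2 and 0.74 ± 0.10 in N18. For differences between lines, values after quantile normalization of the 12 arrays are used and are called normalized log2 values. The arrays of the lines differed in spread. Per array, the middle 50% of probes spanned between 0.38 and 0.78 log2 units for AtT20, between 1.28 and 1.73 for BV2 and between 1.91 and 2.21 for N18. Of 6 microglial markers with probes 5 were detected in BV2, at plate sums of 19.4 to 23.3, against 0 on the plates labelled AtT20 and 1 in N18. All 7 neuroblastoma markers were detected in N18, at plate sums of 20.2 to 23.2, while BV2 and the plates labelled AtT20 each had 3 of the 7 above the threshold (2.10 to 3.17 and 1.44 to 5.91). None of the 5 corticotroph markers was detected on the plates labelled AtT20 (0 of 5, plate sums of 0.17 to 0.52), against 2 in BV2 and 2 in N18. The plates labelled AtT20 are therefore named by their label throughout, and AtT20 written alone stands for that label. The arrays come 4 to a slide, and which plates shared a slide is not known here, so slide and line cannot be told apart.

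Of the 101 genes, 36 were detected on the plates labelled AtT20 (35.6%, against 35% of all genes and targets), 42 in BV2 (41.6% against 53.3%) and 46 in N18 (45.5% against 55.4%). In all 3 lines 19 were detected (25.1% of all genes and targets were), and in none 39 (against 32.4%). The 39 included 20 collagens, 10 metalloproteinases, 4 integrin chains, 3 laminins and 2 integrin-binding proteins, and among them were Col2a1 and Col3a1 of the fibrillar collagens, Mmp9 and Mmp14 of the proteases, and Itgb6, an epithelial integrin chain. On the plates labelled AtT20, 20 of the 36 had at least 2 probes above the threshold, against 31 of 42 in BV2 and 38 of 46 in N18. The share of all genes and targets that passed this filter was not counted. Whether the difference between lines belongs to these genes or to the arrays cannot be told.

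The 19 genes detected in all 3 lines were Col4a1, Col4a2, Col7a1, Col9a1, Col14a1, Lama1, Lamb1, Lamc1, Itga3, Itga5, Itga6, Itgal, Itgav, Itgb1, Itgb2l, Itgb3, Mmp16, Mmp17 and Timp1. Itga6, a laminin receptor chain, was at a level of 3.96 ± 0.26 in N18, 2.92 ± 0.47 in BV2 and 1.68 ± 0.70 on the plates labelled AtT20 (mean ± SD, n = 4 plates). Col7a1, the collagen of anchoring fibrils, was at 2.76 ± 0.06, 2.16 ± 0.32 and 2.38 ± 0.42 in that order, and was called higher on the plates labelled AtT20 than in either other line after quantile normalization but not relative to the seminal proteins. Many of these detections were narrow. Col9a1 and Lama1 had fewer than 2 probes above the threshold in every line. So did Col4a1, Col14a1, Itga5, Itgav, Itgb1, Itgb2l and Lamc1 on the plates labelled AtT20. In BV2 this held for Col4a2, Itgb3, Mmp16 and Timp1, and in N18 for Itgal, Mmp16 and Timp1. Itgal passed on the plates labelled AtT20 at 0.37 ± 0.12 and did not without plate 4, and Mmp16 passed in N18 at 0.77 ± 0.24 with 1 of 4 plates above its own threshold.

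Detected in 1 line only were 8 genes in N18 (against 7.02% of all), 6 in BV2 (4.49%) and 5 on the plates labelled AtT20 (5.12%). Those of N18 were Col6a1 at 2.22 ± 0.23, Col18a1 at 1.86 ± 0.14, Timp3 at 3.47 ± 0.09 and Itga2 at 1.41 ± 0.29, with Itga9, Lama2, Mmp23 and Mmp24 below them. In BV2 they were the leukocyte integrin chains Itgb2 at 4.68 ± 0.34 and Itgb7 at 4.47 ± 0.55, Mmp13 at 1.68 ± 0.34, Mmp21 at 0.82 ± 0.02, Mmp8 and Mmp3. Among the genes of N18 and BV2, Mmp23 in N18 and Mmp21 and Mmp3 in BV2 had fewer than 2 probes above the threshold. On the plates labelled AtT20 they were Col4a6 at 1.48 ± 0.64, Mmp2 at 0.83 ± 0.44, Col1a2 at 0.66 ± 0.33, Col27a1 at 0.54 ± 0.25 and Col25a1. Of these 5, only Col1a2 and Col25a1 had at least 2 probes above the threshold. Col1a2 was at 0.39 ± 0.14 in BV2 and 0.42 ± 0.19 in N18, where the thresholds were higher. Its differences from these lines were not called relative to the seminal proteins. Detection of Col25a1 was lost with the median of the probes, after quantile normalization or with its highest target alone. In the map of levels Col4a1, Col4a2, Lama4, Timp2 and Timp3 are darker on the N18 plates than on the others, and Itgb2, Itgb7 and Itgal darker on the BV2 plates.

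**Figure D1:**
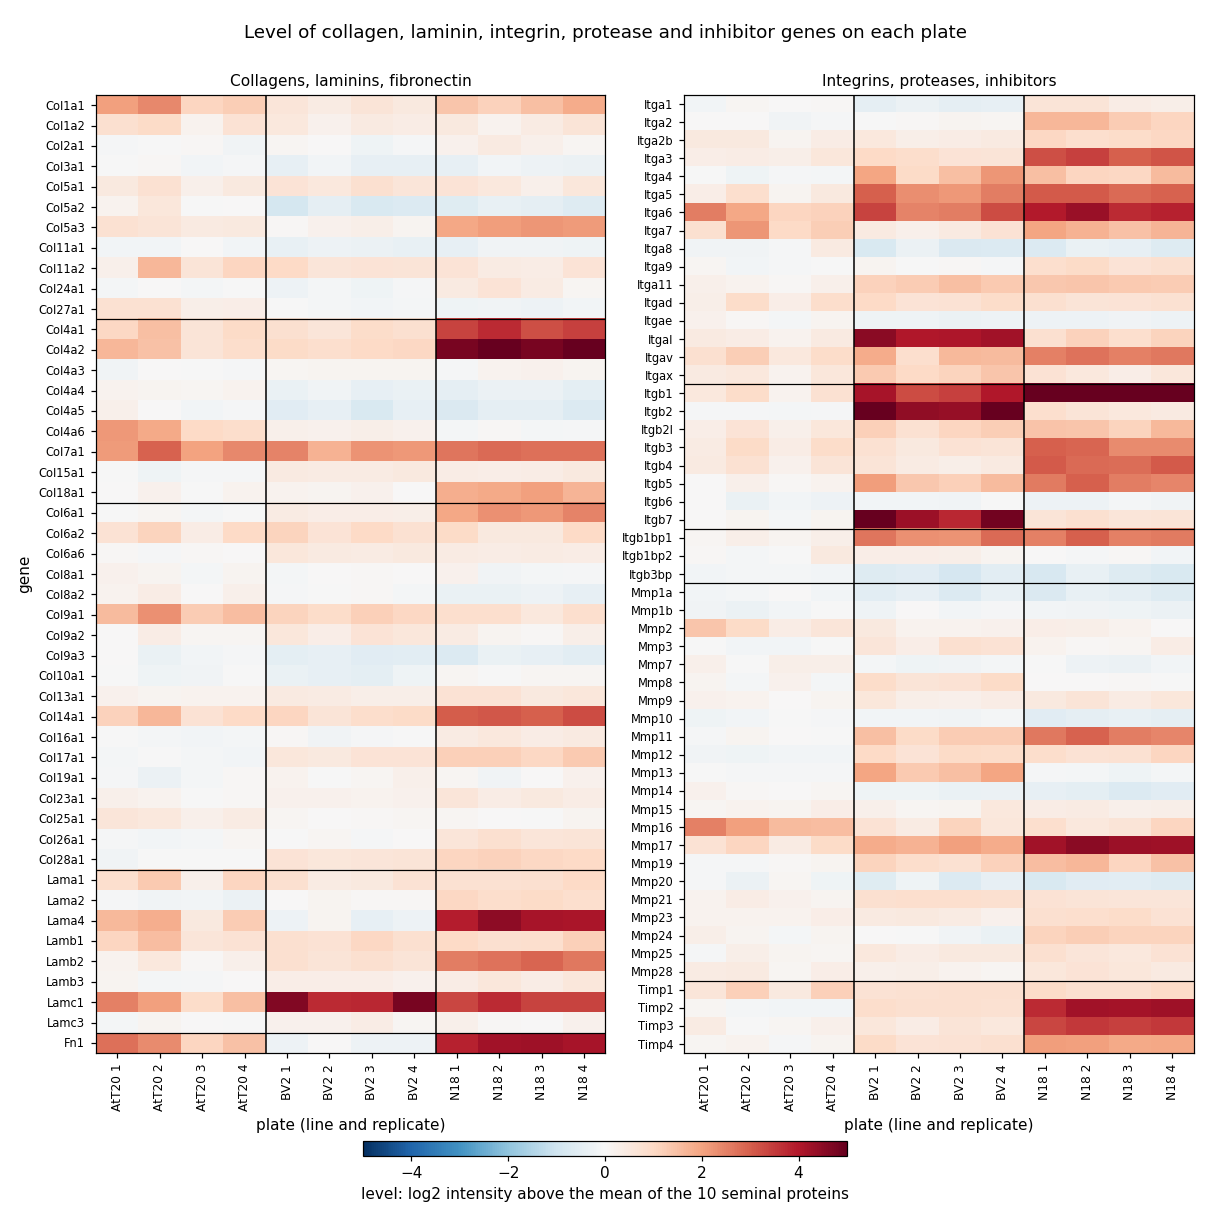
Level of all but 1 of the 101 genes (rows, by group) on each of the 12 plates (columns), as log2 intensity above the mean of the 10 seminal proteins, with red above and blue below that mean. Fn1, Lama4, Col4a1, Col4a2, Timp2 and Timp3 are dark on the 4 N18 plates, and Itgb2, Itgb7 and Itgal on the 4 BV2 plates.

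Between N18 and BV2, fibronectin, type IV collagen, the laminin α4 chain, the β1, β3 and β4 integrin chains and TIMPs were higher in the neuroblastoma line, and the leukocyte integrin chains, the laminin γ1 chain and a few secreted proteases were higher in the microglial line. A gene was called at an adjusted p under 0.05 (limma, Benjamini-Hochberg over 25128 genes and targets) if it was also detected in the line where it was higher. Of the 101 genes, 28 were called higher in N18 (27.7%, against 21.2% of all genes and targets) and 19 higher in BV2 (18.8% against 23%), which makes 47 in all (against 44.2%), while 54 were not called. The choice of scaling mattered more for the second set. All 28 genes higher in N18, and all 5329 over the array, were called the same way without normalization and relative to the seminal proteins, the remaining 2 of 3 scalings, but only 8 of the 19 higher in BV2 were (7.9% of the 101, against 6.89%). The median difference of all genes moved from -0.06 after quantile normalization to 0.15 without it and 0.18 relative to the seminal proteins, and over all genes 5329 were called higher and 5781 lower in N18 in the first case, 7732 and 1804 in the second and 8379 and 2079 in the third. Differences are therefore given with their range over the 3 scalings. Since both other scalings moved the median towards N18, a call under all 3 adds no separate support for a gene higher in N18. On 61 of the 101 genes every plate of 1 line lay above every plate of the other, as on 55.4% of all. In bulk RNA, fewer cells carrying a transcript and less of it per cell cannot be told apart.

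**Figure D2:**
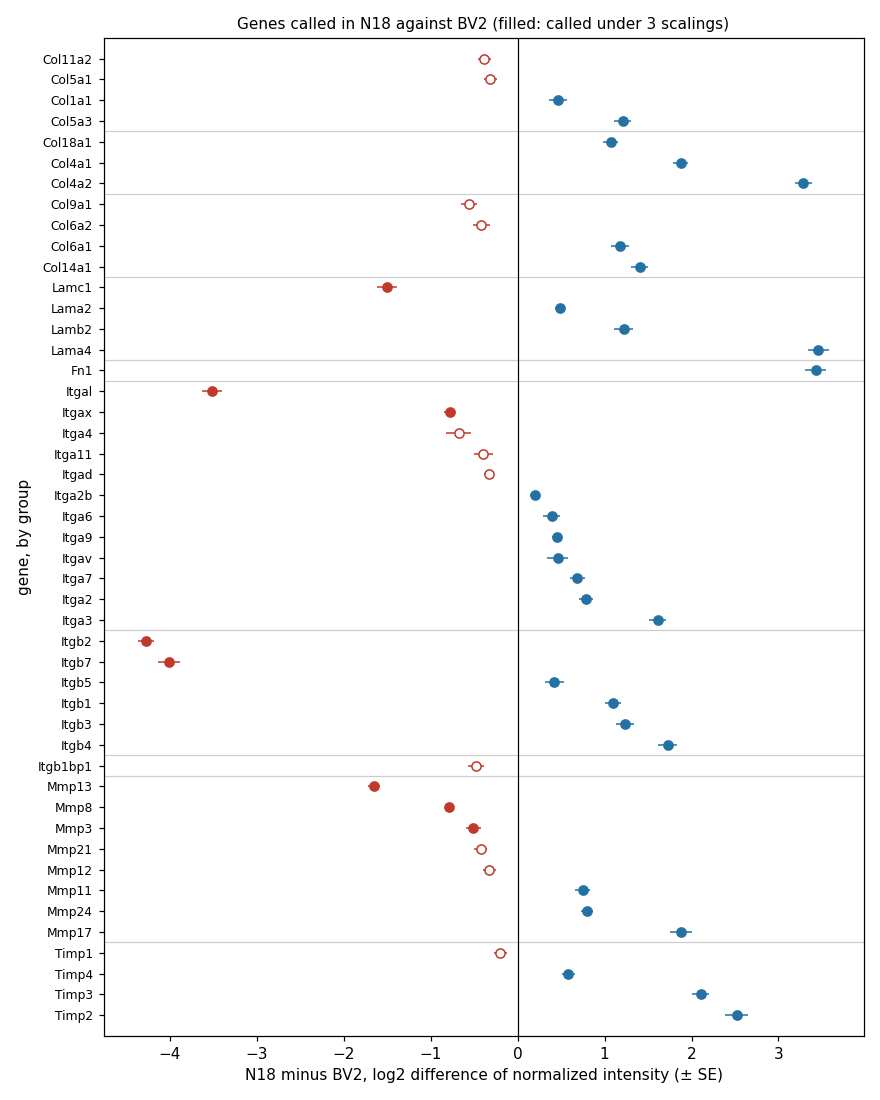
Difference of N18 from BV2 in normalized log2 intensity (x axis, ± SE of the fit) for the 47 genes called, in functional groups (y axis), with N18-higher genes in blue and BV2-higher genes in red. Filled points were called under all 3 scalings (28 to the right and 8 to the left), and the longest differences are those of Itgb2 (-4.28), Itgb7 (-4.01), Itgal (-3.52), Lama4 (3.46) and Fn1 (3.43).

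Fibronectin, the soluble and fibrillar protein that integrins bind, separated BV2 from the other plates. Its normalized log2 values were 13.08, 13.13, 13.63 and 13.38 in N18, 9.79, 10.05, 9.89 and 9.78 in BV2 and 13.22, 12.89, 12.68 and 12.59 on the plates labelled AtT20. The lowest N18 plate stood over 3 units above the highest BV2 plate, and the BV2 level of -0.18 ± 0.12 was below the threshold on every plate. Fn1 was at least 6.8-fold higher in N18 than in BV2 (limma, adjusted p = 2.02e-11), where a fold written with at least is the smallest over the 3 scalings, counted from the detection threshold of the dimmer line. The N18 plates and those labelled AtT20 overlapped in normalized values, and Fn1 was called higher in N18 under all 3 scalings, by 0.46 after quantile normalization (limma, adjusted p = 0.0232), 0.80 without it and 2.19 relative to the seminal proteins, where the plates did not overlap.

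Of the 9 laminins 3 were called higher in N18 (Lama4, Lamb2 and Lama2; 33.3%, against 21.2% of all genes and targets) and 1 higher in BV2 (Lamc1; 11.1% against 23%). Lama4, the α chain of vessel and nerve basement membranes, had values of 13.10, 13.43, 13.51 and 13.36 in N18 and 9.78, 10.21, 9.76 and 9.79 in BV2, where it was not detected. BV2 plate 2 stood apart from the other three, and every N18 plate was far above all 4. The difference was at least 7.0-fold (limma, adjusted p = 1.87e-11). Lamb2, a β chain of nerve and muscle laminins, was higher in N18 by 1.22 ± 0.11 on the normalized log2 scale (± SE), and Lama2, the α chain of muscle and Schwann cell laminin, by 0.49 ± 0.06. Lamc1, the γ chain that most laminins share, went the other way, at 14.24, 13.96, 13.93 and 14.39 in BV2 against 12.52, 12.66, 12.71 and 12.61 in N18. Its difference, N18 minus BV2, of -1.51 ± 0.11 (limma, adjusted p = 5.70e-08) shrank to -0.75 relative to the seminal proteins, and it was called under each of the 3 scalings.

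**Figure D3:**
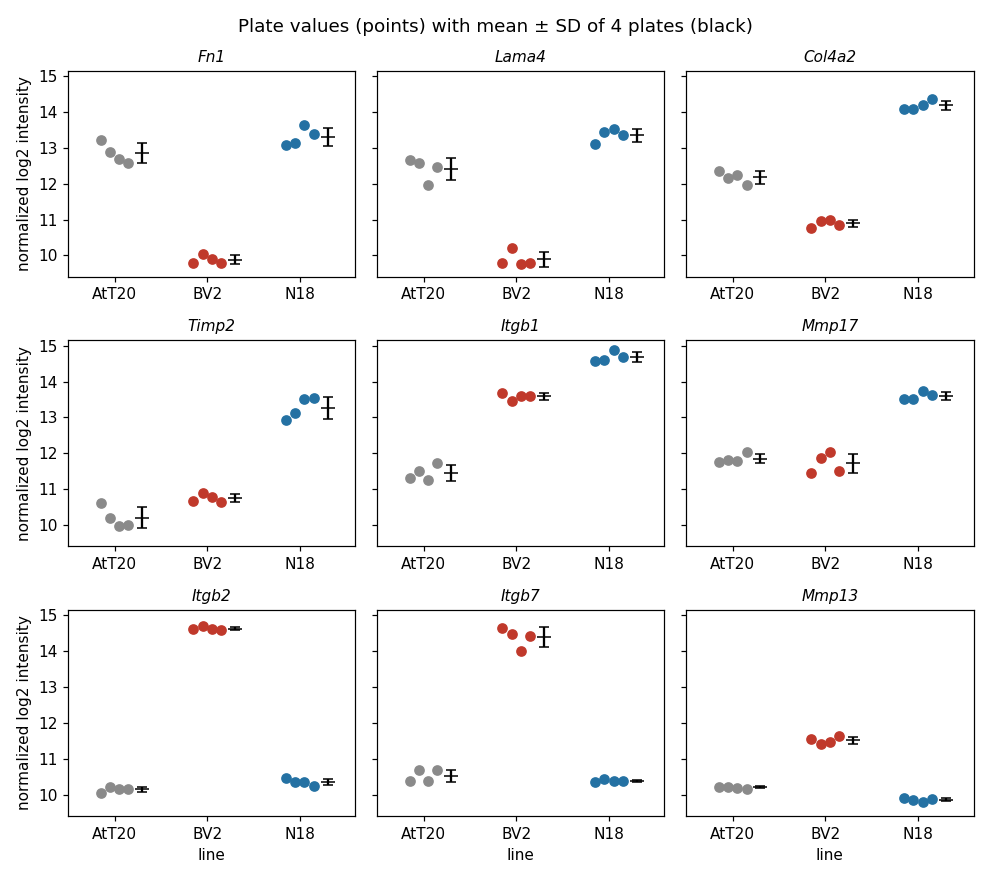
Normalized log2 intensity (y axis) on each plate of 3 lines (x axis; points) for 9 genes, with the mean ± SD of 4 plates in black; the axis does not start at 0. Fn1, Lama4, Col4a2, Timp2 and Mmp17 are high on the N18 plates, Itgb2, Itgb7 and Mmp13 on the BV2 plates, and Itgb1 steps up from AtT20 (11.45) over BV2 (13.58) to N18 (14.68).

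Of the 38 collagens, 7 were called higher in N18 (18.4%, against 21.2% of all genes and targets) and 4 higher in BV2 (10.5% against 23%), and none of the latter (0 of 4) was called under all 3 scalings. Both shares were below those of all genes. Col4a2, which joins Col4a1 in the common type IV collagen network, had values of 14.08, 14.08, 14.19 and 14.36 in N18, 10.75, 10.97, 10.98 and 10.86 in BV2 and 12.36, 12.16, 12.23 and 11.95 on the plates labelled AtT20. The 3 sets did not overlap. Col4a2 was higher in N18 than in BV2 by 3.29 ± 0.10 (3.29 to 3.92 over the 3 scalings; limma, adjusted p = 4.76e-12). Col4a1 ran from 12.53 to 12.67 in N18 and from 10.62 to 10.89 in BV2, a difference of 1.88 ± 0.09 (1.88 to 2.67; adjusted p = 3.97e-10). Col18a1, the basement membrane collagen from which endostatin is cut, was at least 1.6-fold higher in N18 (limma, adjusted p = 1.02e-07). The other type IV chains with probes did not follow, with Col4a3, Col4a4 and Col4a5 detected in no line and Col4a6 on the plates labelled AtT20 alone.

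Among the other collagens, Col14a1, which decorates fibril surfaces, was at 12.23 ± 0.18 in N18 and 10.82 ± 0.05 in BV2 (normalized log2, mean ± SD), and differed by 1.40 ± 0.10 (1.40 to 2.20). Col6a1, a chain of the microfibrils around cells, was at least 1.9-fold higher in N18 (limma, adjusted p = 2.66e-07). Of the fibrillar collagens, Col5a3 was at least 1.8-fold and Col1a1, the main collagen of bone and skin, at least 1.3-fold higher in N18. Col9a1, Col6a2, Col11a2 and Col5a1 were called higher in BV2, by differences between -0.56 and -0.31. Without normalization Col9a1 (-0.33), Col6a2 (-0.20), Col11a2 (-0.24) and Col5a1 (-0.15) were no longer called.

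Of 24 integrin chains with probes, 11 were called higher in N18 (45.8%, against 21.2% of all genes and targets) and 7 higher in BV2 (29.2% against 23%), and under all 3 scalings 11 and 4 (16.7% against 6.89%). The 4 were Itgb2, Itgb7, Itgal and Itgax, all chains of leukocyte integrins. Itgb2, the β chain shared by the leukocyte adhesion integrins, had values of 14.61, 14.70, 14.61 and 14.60 in BV2, 10.47, 10.35, 10.35 and 10.25 in N18 and 10.05, 10.22, 10.16 and 10.16 on the plates labelled AtT20. The BV2 plates stood some 4 units above all others, and the gene was detected in no other line. Itgb2 was at least 15.3-fold higher in BV2 than in N18 (limma, adjusted p = 1.72e-13) and at least 7.7-fold higher than on the plates labelled AtT20 (adjusted p = 1.04e-11). Itgal, the α chain that pairs with Itgb2 in the lymphocyte adhesion receptor, ran from 13.81 to 14.26 in BV2 and from 10.44 to 10.68 in N18, a difference, N18 minus BV2, of -3.52 ± 0.12 (-3.52 to -3.22; limma, adjusted p = 1.02e-11).

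Itgb7, the β chain of the gut-homing lymphocyte integrins, was, like Itgb2, detected in BV2 alone. It stood at 14.65, 14.48, 14.01 and 14.43 in BV2 and at 10.36 to 10.43 in N18, and was at least 12.9-fold higher in BV2 (limma, adjusted p = 5.35e-12). Of the α chains known to pair with it, Itgae was detected in no line, and Itga4 was at a level of 1.66 ± 0.56 in BV2 and 1.30 ± 0.29 in N18, a gene named after its values were seen. Itgax, a myeloid partner of Itgb2 and a marker of dendritic cells, differed less, with 10.99 to 11.13 in BV2 and 10.19 to 10.39 in N18, and was at least 1.3-fold higher in BV2 (adjusted p = 2.50e-07). It also passed on the plates labelled AtT20, at a level of 0.44 ± 0.17 with 1 of 3 probes above the threshold. BV2 minus AtT20 was -0.19 after quantile normalization (limma, adjusted p = 0.19), -0.60 without it and 0.76 relative to the seminal proteins.

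Several chains of matrix receptors were called higher in N18. Itgb1, the partner of most α chains that bind collagen, laminin or fibronectin, was detected in every line, at 14.56, 14.59, 14.88 and 14.67 in N18, 13.68, 13.45, 13.59 and 13.61 in BV2 and 11.30, 11.50, 11.25 and 11.73 on the plates labelled AtT20. The lines did not overlap. On the plates labelled AtT20 its level was 0.60 ± 0.33, with 1 of 3 probes and 3 of 4 plates above the threshold, and it was not detected there with the median of the probes or with olfactory receptor genes as controls. The difference of N18 from BV2 was 1.09 ± 0.09 (1.09 to 1.64; limma, adjusted p = 2.30e-07). Itga3, a laminin receptor chain, was higher in N18 by 1.61 ± 0.10 (1.61 to 2.39), and Itgb3, the β chain of the vitronectin receptor, by 1.23 ± 0.10 (1.23 to 2.00). Itgb4, which pairs with Itga6 in hemidesmosomes, was at least 3.0-fold higher in N18 (adjusted p = 1.04e-08). Itga2, a collagen receptor chain, was at least 1.2-fold higher (adjusted p = 1.33e-06). The others called higher in N18 were Itga2b, Itga6, Itga7, Itga9, Itgav and Itgb5, by 0.20 to 0.69, and the others called higher in BV2 were Itga4, Itga11 and Itgad, none of which (0 of 3) was called under all 3 scalings. Itgb1bp1, which binds the tail of the β1 chain, differed by -0.48 ± 0.10 (N18 minus BV2) after quantile normalization, and the sign turned without normalization (0.13) and relative to the seminal proteins (0.16).

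Of the 22 metalloproteinases, 3 were called higher in N18 (Mmp17, Mmp24 and Mmp11; 13.6%, against 21.2% of all genes and targets) and 5 higher in BV2 (Mmp13, Mmp8, Mmp3, Mmp21 and Mmp12; 22.7% against 23%). Mmp21 and Mmp12 were not called without normalization or relative to the seminal proteins, which leaves 3 of the 5 under all 3 scalings (13.6% against 6.89%). Mmp17 and Mmp24 are held at the cell membrane. Mmp17 stood at 13.51, 13.52, 13.73 and 13.63 in N18 and 11.46, 11.86, 12.04 and 11.52 in BV2, without overlap, and the difference was 1.88 ± 0.13 (1.88 to 2.43; limma, adjusted p = 2.38e-08). Mmp24 was at least 1.1-fold higher in N18 (adjusted p = 2.64e-07). Mmp13, a secreted collagenase, stood at 11.55, 11.42, 11.46 and 11.63 in BV2, 9.91, 9.86, 9.80 and 9.89 in N18 and 10.23, 10.22, 10.20 and 10.17 on the plates labelled AtT20. It was detected in BV2 alone and there on each plate, and was at least 1.9-fold higher than in N18 (limma, adjusted p = 9.88e-11). Mmp8, the collagenase of neutrophils, was higher in BV2, at 10.73, 10.77, 10.72 and 10.83 against 9.98, 9.96, 10.00 and 9.97 in N18 (N18 minus BV2 -0.79 ± 0.05, adjusted p = 2.39e-08), with no fold given since the bound from the threshold was 1.0. The gelatinase Mmp9 was detected in no line, and Mmp2 on the plates labelled AtT20 alone.

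**Figure D4:**
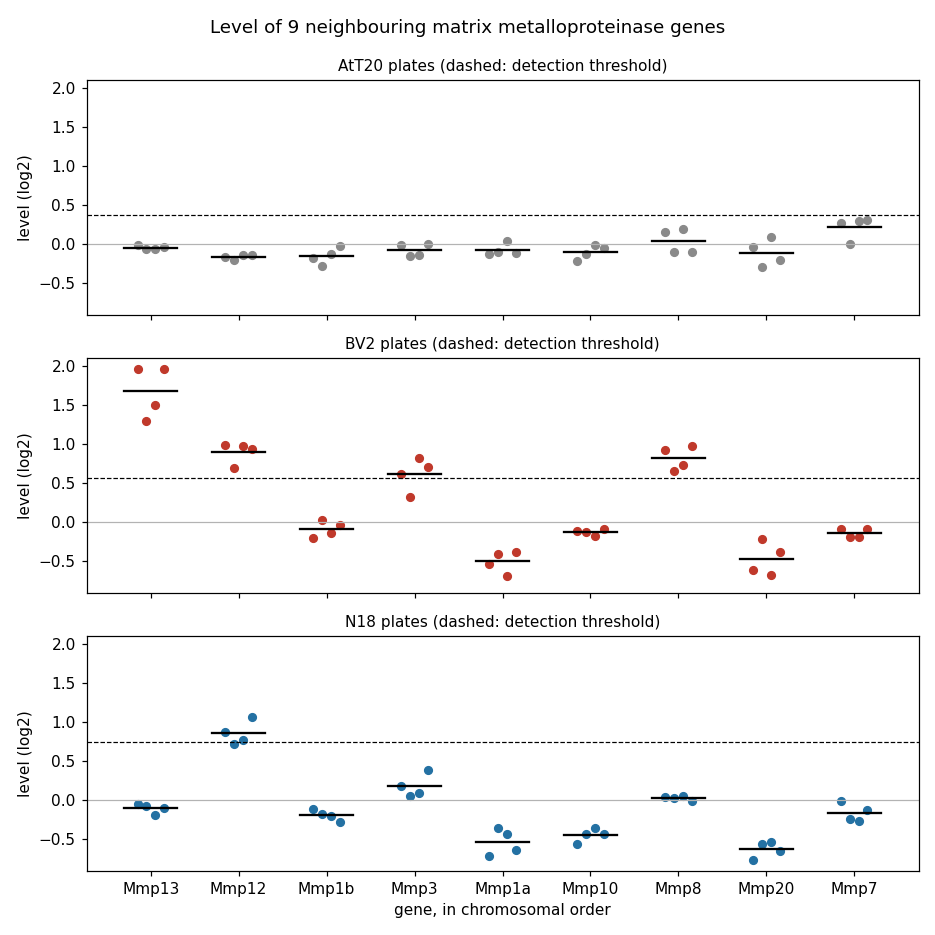
Level on each plate (y axis, log2 units above the seminal proteins; points, with the mean of 4 plates as a bar) of 9 metalloproteinase genes in chromosomal order (x axis), in 1 panel per line with its detection threshold dashed. Mmp13, Mmp12, Mmp3 and Mmp8 lie above the threshold on average in BV2, Mmp12 alone in N18, and none on the plates labelled AtT20.

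The 3 proteases called higher in BV2 under all 3 scalings, Mmp13, Mmp3 and Mmp8, lie in 1 gene cluster. By position in RefSeq (GRCm38.p6), 9 of the 22 metalloproteinase genes with probes lie next to each other on chromosome 9 in the order Mmp13, Mmp12, Mmp1b, Mmp3, Mmp1a, Mmp10, Mmp8, Mmp20 and Mmp7, with 1 other gene between Mmp8 and Mmp20. Mmp13 was at a level of 1.68 ± 0.34 in BV2, Mmp12 at 0.89 ± 0.14, Mmp8 at 0.82 ± 0.15 and Mmp3 at 0.61 ± 0.22, and the 5 between and beside them lay from -0.51 to -0.09, all below the threshold. Mmp3 passed with 1 probe and Mmp12 with 1 probe. Mmp3 and Mmp8 were not detected in BV2 at 3 SD or with all 4 plates above the threshold. With olfactory receptor genes as controls, Mmp3, Mmp8 and Mmp12 were not detected there. In N18 only Mmp12 passed, at 0.86 ± 0.15, and on the plates labelled AtT20 none of the 9 did (0 of 9). Mmp1a and Mmp1b are close copies, and a probe may not tell them apart.

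The 100 bases before the start of 5 genes of this cluster are shown. Detected members (Mmp13, Mmp12 and Mmp3) and an undetected one (Mmp10) share letters there, and Mmp8 is a detected member without them. Sequences are from RefSeq (GRCm38.p6), 5′ to 3′ on the gene's strand, and capitals mark an AP-1 element (TGACTCA, or TGAGTCA on the other strand) and the letters TATAAA.
Mmp13, detected in BV2, chr9:7272414-7272513, plus strand: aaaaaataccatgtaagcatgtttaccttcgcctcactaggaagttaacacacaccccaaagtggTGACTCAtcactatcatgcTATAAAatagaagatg
Mmp12, detected in BV2 and N18, the 1 of 2 listed starts that holds the element, chr9:7347274-7347373, plus strand: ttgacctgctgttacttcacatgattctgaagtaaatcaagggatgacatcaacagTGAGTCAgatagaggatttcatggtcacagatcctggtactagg
Mmp3, detected in BV2, chr9:7445722-7445821, plus strand: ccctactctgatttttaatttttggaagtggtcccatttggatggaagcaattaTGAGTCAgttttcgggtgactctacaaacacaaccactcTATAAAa
Mmp8, detected in BV2, chr9:7558329-7558428, plus strand: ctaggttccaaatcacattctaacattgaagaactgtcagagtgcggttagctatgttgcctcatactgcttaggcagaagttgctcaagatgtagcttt
Mmp10, detected in no line, chr9:7502242-7502341, plus strand: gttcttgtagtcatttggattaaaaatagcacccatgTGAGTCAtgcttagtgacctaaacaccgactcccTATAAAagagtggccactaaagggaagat
Within 250 bases before the start, searched on both strands, 7 of the 9 cluster genes held the AP-1 letters and 7 of 9 TATAAA, against 4.46% and 12.4% of all 32851 promoter windows. The window of Mmp8, detected in BV2, held neither, and that of Mmp10, detected in no line, held both. A link between these letters and the levels was not tested. Among the 74 of the 101 genes with a window, 9 held the AP-1 letters. A match is a run of letters and not a measured site.

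Of the 4 TIMPs, which inhibit metalloproteinases, 3 were called higher in N18 (against 21.2% of all genes and targets) and 1 (Timp1) higher in BV2 (against 23%). Timp2, an inhibitor that also takes part in the activation of Mmp2, had values of 12.92, 13.11, 13.52 and 13.53 in N18, 10.67, 10.90, 10.78 and 10.65 in BV2 and 10.61, 10.21, 9.99 and 10.02 on the plates labelled AtT20. Every N18 plate was over 2 units above every other plate. The difference of N18 from BV2 was 2.52 ± 0.14 (2.52 to 3.29; limma, adjusted p = 1.71e-09). Timp3, the TIMP that stays bound to the matrix, was detected in N18 alone at 12.52, 12.41, 12.72 and 12.76, against 10.44, 10.46, 10.64 and 10.44 in BV2, at least 4.2-fold higher (limma, adjusted p = 3.68e-10). Timp4 was higher in N18 by 0.58 ± 0.07 (0.58 to 1.20; adjusted p = 9.70e-06).

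Timp1, the secreted inhibitor that growth factors and cytokines induce, did not follow. Its values ran from 10.57 to 10.86 in BV2 and from 10.41 to 10.60 in N18, which overlapped. The difference of -0.20 ± 0.07 (limma, adjusted p = 0.0311) turned to 0.079 without normalization and 0.11 relative to the seminal proteins, so it has no settled direction. The promoters of Timp2 and Timp3 are shown beside those of the proteases because these genes were the TIMPs with the longest differences. Capitals mark the GC box letters GGGCGG or CCGCCC.
Timp2, chr11:118355412-118355511, minus strand: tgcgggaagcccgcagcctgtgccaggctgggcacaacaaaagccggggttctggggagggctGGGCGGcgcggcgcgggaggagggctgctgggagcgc
Timp3, chr10:86300312-86300411, plus strand: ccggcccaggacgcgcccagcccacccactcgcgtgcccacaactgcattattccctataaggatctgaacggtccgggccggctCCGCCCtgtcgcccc
Of the 4 TIMP genes 3 held a GC box in the 250 bases, against 0 of the 9 clustered protease genes and 32.7% of all windows, and 0 of the 4 held the AP-1 letters or TATAAA.

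The plates labelled AtT20 had the narrowest range of intensities, and a comparison with them depended on the scaling more than that of N18 with BV2. Against BV2, 18 of the 101 genes were called higher in BV2 (against 23.1% of all genes and targets) and 29 higher on the plates labelled AtT20 (against 23.2%). Under all 3 scalings it was 7 (6.9% against 11.4%) and 11 (10.9% against 7.27%). Against N18, 25 were called higher in N18 (against 25.4%) and 21 higher on the plates labelled AtT20 (against 23.5%), with 17 (16.8% against 18.2%) and 6 (5.9% against 5.99%) under all 3 scalings. Both comparisons use the same plates labelled AtT20. The median difference of all genes from these plates was -0.23, -1.08 and 0.28 for BV2 and -0.25, -0.86 and 0.54 for N18 after quantile normalization, without it and relative to the seminal proteins.

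Higher in BV2 than on the plates labelled AtT20 under all 3 scalings were Itgb2, Itgb7, Itgal, Itgb1, Lamc1, Itga5 and Itgb1bp1. Itgb7 was at least 6.6-fold higher (limma, adjusted p = 1.97e-10), and the differences of Itgal, Itgb1 and Lamc1 were 2.85 ± 0.15, 2.14 ± 0.14 and 1.53 ± 0.15 on the normalized log2 scale. In N18 the largest were Itgb1 at 3.23 ± 0.14 (3.23 to 4.75; limma, adjusted p = 8.59e-10) and Timp2, at least 3.9-fold higher (adjusted p = 1.32e-08). Col4a2 differed by 2.00 ± 0.12 (2.00 to 3.72), Mmp17 by 1.74 ± 0.12 (1.74 to 3.51), and Timp3 was at least 2.5-fold higher in N18 (adjusted p = 1.09e-06).

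Collagens made up 6 of the 11 genes higher on the plates labelled AtT20 than in BV2 under all 3 scalings, and 4 of the 6 higher than in N18, which is 15.8% of the 38 collagens (against 7.27% of all genes and targets) and 10.5% (against 5.99%). Against BV2 under all 3 scalings they were Col1a1, Col4a6, Col5a3, Col9a1, Col25a1 and Col27a1, with Fn1, Lama4, Itga7, Mmp16 and Mmp2. Against N18 they were Col4a6, Col9a1, Col25a1, Col27a1, Mmp16 and Mmp2. Of the 11, Col4a6, Col5a3, Col9a1, Col27a1, Itga7 and Mmp2 had 1 probe above the threshold on these plates. Col1a1 had levels of 2.05, 2.40, 1.07 and 1.24 on the 4 plates, 0.62, 0.39, 0.64 and 0.48 in BV2 and 1.38, 1.17, 1.52 and 1.85 in N18. The lower plates labelled AtT20 overlapped the N18 plates, and all 4 were above the BV2 plates. It was at least 2.1-fold higher than in BV2 (limma, adjusted p = 1.16e-08). Fn1 was at least 2.5-fold and Lama4 at least 1.6-fold higher than in BV2 (adjusted p = 1.60e-09 and 1.80e-08).

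Mmp16, a metalloproteinase held at the membrane, had levels of 2.51, 2.07, 1.58 and 1.53 on the plates labelled AtT20, 0.85, 0.53, 0.63 and 1.08 in N18 and 0.70, 0.41, 1.10 and 0.58 in BV2. Plates labelled AtT20 were above all others. The difference was -2.39 ± 0.19 for BV2 minus AtT20 and -2.63 ± 0.17 for N18 minus AtT20 on the normalized log2 scale, and -1.22 and -1.15 relative to the seminal proteins. Col4a6, a basement membrane chain, had levels of 2.17, 1.90, 0.98 and 0.89 on these plates and was at least 1.8-fold higher than in BV2 and at least 1.6-fold higher than in N18 (limma, adjusted p = 5.08e-08 and 1.84e-08), but 1 of its probes carried the signal, and with the median of the probes its difference of BV2 from AtT20 turned to 0.16. Col9a1 was higher than in N18, at a difference of N18 from AtT20 of -2.17 ± 0.14 (-2.285 to -0.89 over the 3 scalings). After it came Mmp2 at -1.60 ± 0.13 (-2.01 to -0.62) and Col27a1 at -1.57 ± 0.12 (-2.13 to -0.74). No fold is given for Mmp2 and Col27a1, since their bounds from the threshold were 1.0 and 0.8.

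**Figure D5:**
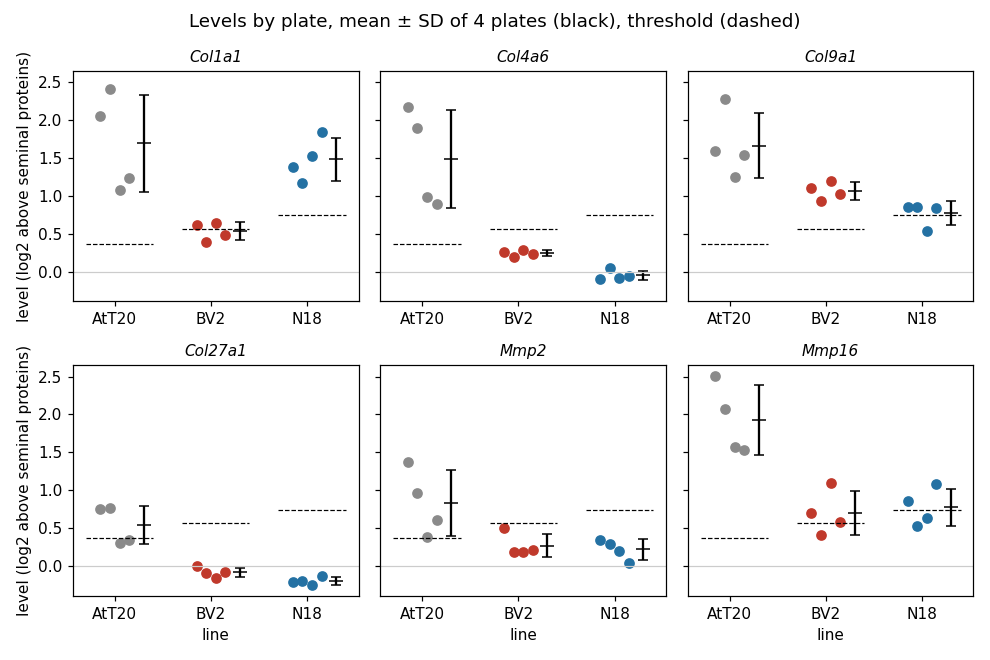
Level of 6 genes (y axis, log2 units above the seminal proteins) on each plate of 3 lines (x axis; points), with the mean ± SD of 4 plates in black and the detection threshold of each line dashed. Plates 1 and 2 labelled AtT20 sit above plates 3 and 4 for Col1a1 and Col4a6, and all 4 lie above the BV2 and N18 plates for Col4a6, Mmp16 and Col27a1.

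Some fibroblast markers were above the threshold in every line. The plates labelled AtT20 had 5 of 8 (Pdgfra, Pdgfrb, Thy1, Postn and Twist1), with plate sums of 2.74 to 6.58. BV2 had 3 (Pdgfra, Thy1 and Dcn), with sums of 1.66 to 2.99. N18 had 4 (Pdgfra, Pdgfrb, Thy1 and Dcn), with sums of 6.58 to 7.91. Postn and Twist1 passed for AtT20 alone, whereas Dcn failed only there, at 0.07. Lum and Prrx1 passed nowhere. The share of all genes and targets that passed was 35% for AtT20, 53.3% for BV2 and 55.4% for N18. Of 5 endothelial markers, BV2 and N18 each had 3 above the threshold and the plates labelled AtT20 had 1. The part of either cell type in the collagen, fibronectin and laminin values was not tested.

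Partners of these genes also differed between N18 and BV2. Of 54 genes with probes from a list of collagen processing enzymes, basement membrane partners, integrin adaptors and protease regulators, 25 were called higher in N18 and 14 higher in BV2 (against 21.2% and 23% of all genes and targets), and 25 and 7 were so under all 3 scalings (against 21.2% and 6.89%). Sparc, a collagen-binding matrix protein, was at least 12.7-fold higher in N18 (limma, adjusted p = 1.51e-12). Nid1, which joins laminin to type IV collagen, was at least 5.9-fold higher (adjusted p = 8.15e-11), and Pcolce, the enhancer of procollagen cleavage, was higher by 3.32 ± 0.10 on the normalized log2 scale. Of the 18 collagen processing genes, 9 were called higher in N18 (against 21.2% of all), among them P4ha1, P4ha2, P4ha3, Plod1, Plod2 and Plod3, and 1 higher in BV2.

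Among adaptors that bind integrin tails, isoforms of 1 family differed in opposite directions. Fermt2, the kindlin of most adherent cells, was at 13.06, 13.17, 12.89 and 13.13 in N18 and 9.71, 9.63, 9.71 and 9.72 in BV2, and Fermt3, the kindlin of blood cells, at 10.25, 10.25, 10.22 and 10.17 and 14.09, 14.12, 13.95 and 13.79. Fermt2 was at least 5.7-fold higher in N18 and Fermt3 at least 10.2-fold higher in BV2 (limma, adjusted p = 7.08e-13 and 9.45e-13). Of the parvins, Parva and Parvb were called higher in N18, and Parvg, the hematopoietic one, was higher in BV2 (N18 minus BV2 -3.37 ± 0.09). Sdc4, a heparan sulfate receptor that acts beside integrins, was also higher in BV2 (N18 minus BV2 -4.10 ± 0.09, adjusted p = 3.63e-13), and Ptk2b, a kinase activated by adhesion, was at least 2.1-fold higher in BV2 (adjusted p = 6.29e-10).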

How the data were processed

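As deposited, the values are log2 intensities of 72000 probes on each of 12 NimbleGen mouse arrays, which the authors made from Cy3 signal (1 array per plate, RNA extracted from each plate). The paper's methods name neither a background correction nor a normalization. Targets (25631) were named through transcript identifiers, and 69.4% matched. The detection rule is that of the study's methods, with the scale for averaging probes chosen here. For differences, limma 3.58.1 (R 4.3.3; lmFit, eBayes with a trend) was run on the 8 arrays of each pair. Alternatives were unnormalized values, seminal-relative levels, normexp (offset 50), other probe summaries, control genes and thresholds, all 12 arrays, a replicate block and leaving out each plate, and, chosen after seeing the data, at least 2 probes and normalization of the 8 arrays of a pair. Both steps were tested on simulated data. Named genes are, per functional group, up to 4 called with the largest difference of N18 from BV2, with Fn1, Itgb1, Col4a1, Col4a2 and the TIMPs; for AtT20, up to 5 per direction called under 3 scalings; for detection, up to 4 per line and those in all 3 lines; and up to 4 pathway genes per direction. Other names were chosen after their values were seen. The members and lists were chosen with earlier results of these data known. Each line's plates were separate cultures. The values of 1 gene are not reported here. The files' build is MM8, and RefSeq names, order and promoters are of GRCm38.p6. Tables and plots used Python 3.11.15, numpy 2.4.6, pandas 2.3.3 and matplotlib 3.10.9.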

Additional observations from a re-analysis of the deposited data

Results flagged for a closer look

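In 5 of 119 groups of 4 plates, 1 plate stood apart from the other 3 by more than the critical share of the group's range, and chance alone flags about 1 group in 20. On the normalized log2 scale, Col18a1 was 11.46 on N18 plate 3 and 11.13 to 11.15 on the others. On BV2 plate 2, Itgb2 was 14.70 against 14.60 to 14.61, and Lama4 was 10.21 against 9.76 to 9.79. On BV2 plate 3, Mmp16 was 11.08 against 10.48 to 10.52, and Timp3 was 10.64 against 10.44 to 10.46. No cause was tested.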

How the results depend on the processing

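When olfactory receptor genes replaced the seminal proteins, the count of genes detected went from 36 to 21 on the plates labelled AtT20, from 42 to 15 in BV2 and from 46 to 27 in N18. On the plates labelled AtT20 it was 21 with the median of the probes, 22 with all 4 plates above the threshold and 20 with at least 2 probes above it (the last chosen after seeing the data), and in BV2 24 at 3 SD. Shares of all genes and targets under these detection settings were not counted. A log2 difference of at least 1 left 21 of the 47 calls between N18 and BV2, 16 higher in N18 and 5 higher in BV2, and left 26 of 46 between N18 and AtT20 (9 of 25 higher in N18) and 9 of the 18 higher in BV2 than in AtT20. Over all genes and targets it left 1378 of 5329 higher in N18 than in BV2 and 1093 of 5781 higher in BV2. Against AtT20 it left 3312 of 6370 higher in N18, with 3910 of 5912 lower, and 3153 of 5814 higher in BV2. Without normalization the genes higher in BV2 fell from 19 to 8 against N18 and from 18 to 7 against AtT20. Those over all genes and targets fell from 5781 to 1804 and from 5814 to 2861. Relative to the seminal proteins 9 were higher in BV2 than in N18, 28 higher in BV2 and 11 higher in AtT20 for that pair, and 38 higher in N18 and 6 higher in AtT20 for that pair. The counts over all genes and targets were 2079, then 9707 and 1828, then 11821 and 1504. Without the requirement of detection, 32 were higher in BV2 than in N18, 76 differed between BV2 and AtT20 (57 higher in AtT20) and 74 between N18 and AtT20 (49 higher in AtT20). Of all 25128 genes and targets, 9000 were then higher in BV2 than in N18. Between BV2 and AtT20, 11017 were higher in AtT20 and 6277 in BV2, and between N18 and AtT20, 11699 were higher in AtT20 and 6710 in N18. Leaving out single plates, 34 to 36, 41 to 43 and 45 to 47 genes were detected in AtT20, BV2 and N18, and the calls numbered 46 to 49 for N18 and BV2 (28 to 29 higher in N18, 18 to 21 higher in BV2), 43 to 48 for BV2 and AtT20 (14 to 19 and 28 to 29) and 45 to 48 for N18 and AtT20 (24 to 27 and 21 in each case). Of single genes, the difference of N18 from BV2 turned for Itgb1bp1 to 0.13 without normalization, 0.16 relative to the seminal proteins and 0.011 with the median of the probes, and for Timp1 to 0.079 and 0.11 under the first 2, and that of BV2 from AtT20 for Col4a6 to 0.16 with the median. Timp1 also lost its call without BV2 plate 2 or 3 and without N18 plate 2 or 3. Plates of 1 number did not deviate together in every pair (correlations of -0.105 to 0.319), and the main fits assumed no pairing. The highest was that of plate 2 of N18 and BV2, and whether the numbers mark a shared step is not known. With the replicate block 46, 47 and 46 genes were called for the 3 pairs of lines, with 28 higher in N18 and 18 higher in BV2 in the first. The causes were not tested. Signal over background and 4 arrays per line limit the precision, most on the plates labelled AtT20.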

Other observations

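Neighbouring genes did not always show like levels. Col4a1 and Col4a2, which lie next to each other on chromosome 8, were both highest in N18, at levels of 3.44 ± 0.22 and 4.88 ± 0.15 (mean ± SD, n = 4 plates). Col6a1 and Col6a2, neighbours on chromosome 10, differed in pattern, with Col6a1 detected in N18 alone at 2.22 ± 0.23 and Col6a2 detected on the plates labelled AtT20 at 0.81 ± 0.32 and in BV2 at 0.89 ± 0.20, and just below the threshold in N18 at 0.72 ± 0.28, which it passed without plate 2 or plate 3. Itga2 and Itga1 on chromosome 13 code for the α chains of collagen receptors, and Itga2 was detected in N18 at 1.41 ± 0.29 while Itga1 stayed below the threshold at 0.50 ± 0.18. On chromosome X, Col4a6 was detected on the plates labelled AtT20 at 1.48 ± 0.64 and Col4a5 was at 0.01 ± 0.17 there. These pairs were chosen after their values were seen, and no test was made between neighbours.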
